A study of Mus musculus with 30 samples.

Results

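Spsb1, Spsb2, Spsb3 and Spsb4 are the 4 mouse genes of the SPRY domain and SOCS box family, and their transcripts were followed here in the hypothalamus and the whole eye of mice with and without the clock gene Per3. The members were all probes that the array files name Spsb1, Spsb2, Spsb3 or Spsb4, which gave 6 probes of 4 genes among 41174 probes that are not controls. The genes were selected on Spsb1, for its genotype difference in the eye and for how closely it followed Per3 in the eyes of wild-type (WT) mice, so these values are described without a test, and tests of Spsb1 are given only for the hypothalamus, for the tissues and for its relation to Per3 outside the WT eye. Male adult WT mice and Per3-/- mice on a C57Bl/6J background, bred as litter mates, had been kept in running wheel cages under 17 cycles of 3.5 h light and 3.5 h dark and were killed during the light part of the last cycle. The Per3-/- mice carry a constitutive knockout, so that every cell of both tissues lacks a functional gene. The hypothalamic sample was a block cut around the optic chiasm that includes the suprachiasmatic nuclei. Each array held the RNA of 1 tissue of 1 mouse, with 8 WT and 8 Per3-/- mice for the hypothalamus and 7 of each genotype for the eye.

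The proteins of this family are adaptors of ubiquitin ligases. Their SPRY domain grips a short motif in the protein that is to be marked, and their SOCS box binds elongin B and elongin C and through them cullin 5 and the RING protein Rnf7 (Rbx2). Spsb1, Spsb2 and Spsb4 are known for binding the inducible nitric oxide synthase, Nos2, whose lifetime they shorten in activated macrophages, and Spsb1 also for marking a receptor of transforming growth factor beta.

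Spsb1 is the only member on the chromosome that carries Per3. On assembly mm9 its brighter probe, A_52_P370760, lies on the minus strand at chr4:149271449-149271508 and starts at base 1938 of NM_029035. The dimmer probe, A_51_P423737, lies at chr4:149280611-149280670 and starts at base 850 of the same transcript, 1088 bases upstream, so that the pair reads different parts of 1 messenger RNA that are 9162 bases apart in the genome. The Per3 probe lies 1.10 Mb from the nearer Spsb1 probe. One more probe with the name Spsb1, A_52_P3784, was designed on the clone AK089767 and is placed on another chromosome, at chr17:63434912-63434971. The first 30 bases of the 3 probes named Spsb1 are shown because the results for this gene turn on whether its probes agree.
A_52_P370760: tcatacaccggcacacgtgtttcagcctct
A_51_P423737: ggatgatgggaccttaagtttcatcgtgga
A_52_P3784: cccacttcagtacaaggaggctccttataa
Spsb2 was read by A_51_P410101 at chr6:124760562-124760621, Spsb3 by A_52_P613418 at chr17:25027635-25027694 and Spsb4 by A_52_P659312 at chr9:96843905-96843964. Of the 60 bases of each probe, 21 are G or C in those of Spsb2 and Spsb4, 31 in that of Spsb3 and 31 and 32 in those of Spsb1.

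Values are log2 intensities minus the 75th percentile of the array, so 0 is the 75th percentile of all probes, and levels are compared within a probe and never between probes. That percentile lay between 1131 and 2207 intensity units on the 30 arrays, and the scanner software marked 68.0% to 80.7% of probes as well above background. The probes of Spsb2, Spsb3 and Spsb4 and both Spsb1 probes on chromosome 4 carried this mark on all 30 arrays. A_52_P3784 carried it on 3 of 7 WT and 2 of 7 Per3-/- eye arrays and on none of the 16 hypothalamus arrays. With the hypothalamus set to the lowest signal with that mark on each array, its mean eye level was 1.30-fold higher in WT and 1.10-fold in Per3-/- mice. Most eye arrays lacked the mark too, so these values are not lower bounds. The probe is not used further for Spsb1. The tissues carried their own markers. All 12 hypothalamic marker genes were well above background on every hypothalamus array, and all 10 photoreceptor and all 9 lens genes on every eye array. Pituitary marker genes stood apart in the hypothalamus of Per3-/- mouse 1, with a summed log2 level of 9.63, and of WT mouse 5, with 5.36, against -0.18 to 1.23 in the other mice. Choroid plexus markers there ranged from 3.70 to 5.83 in WT and from 3.87 to 6.02 in Per3-/- mice. Liver plasma protein markers there ranged from -1.93 to 2.58 and from -2.14 to 3.07. In the eye the liver markers reached 5.55 in Per3-/- mouse 2, against at most 3.33 in WT mice. In whole tissue, fewer cells that express a gene and less RNA in each cell cannot be told apart.

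Per3, the targeted gene, is given first. In the hypothalamus its probe (A_51_P258493) ranged from -3.79 to -3.28 with a median of -3.45 in WT mice and from -4.21 to -3.59 with a median of -3.99 in Per3-/- mice, and 7 of 8 Per3-/- mice were below the lowest WT value. The eye ranges were -3.55 to -2.57 and -4.12 to -2.90, with 4 of 7 Per3-/- mice below the lowest WT value. Mean signal was lower in Per3-/- mice by a factor of 1.42 in the hypothalamus (limma's adjusted p = 0.067). The eye factor was 1.37 (adjusted p = 1). The probe was well above background on all arrays of both genotypes. In this line a cassette took the place of exon 3 and the intron after it, and the probe starts at base 4401 of NM_011067, downstream of that part, so its signal does not check the genotype labels.

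Mean Spsb1 signal was higher in Per3-/- than in WT eyes with both of its probes on chromosome 4. With A_52_P370760 the 7 WT eyes gave -3.28, -3.11, -2.91, -2.80, -2.58, -2.37 and -2.23 in rising order, and the 7 Per3-/- eyes gave -2.31, -2.22, -2.14, -2.09, -1.87, -1.87 and -1.81. All Per3-/- eyes but 1 lay above the highest WT eye, so the groups met only at their edges. The means were -2.76 ± 0.38 (SD, n = 7) and -2.05 ± 0.19 (SD, n = 7), a log2 difference of 0.71 (standard error 0.16) or 1.63-fold. With A_51_P423737 the WT eyes lay between -5.43 and -4.85 and the Per3-/- eyes between -5.09 and -4.38. Again 6 of 7 Per3-/- eyes lay above every WT eye, and the exception was mouse 6 at -5.09. The log2 difference was 0.56 (standard error 0.13) or 1.48-fold. Of 41111 probes measured on all eye arrays, 0.124% had at least 6 of 7 Per3-/- mice above every WT mouse, which is given for scale only, since this contrast chose the gene. The eye signal of the dimmer probe was low in absolute terms, between 29.1 and 67.7 intensity units, against 145 to 410 for the brighter one.

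**Figure D1:**
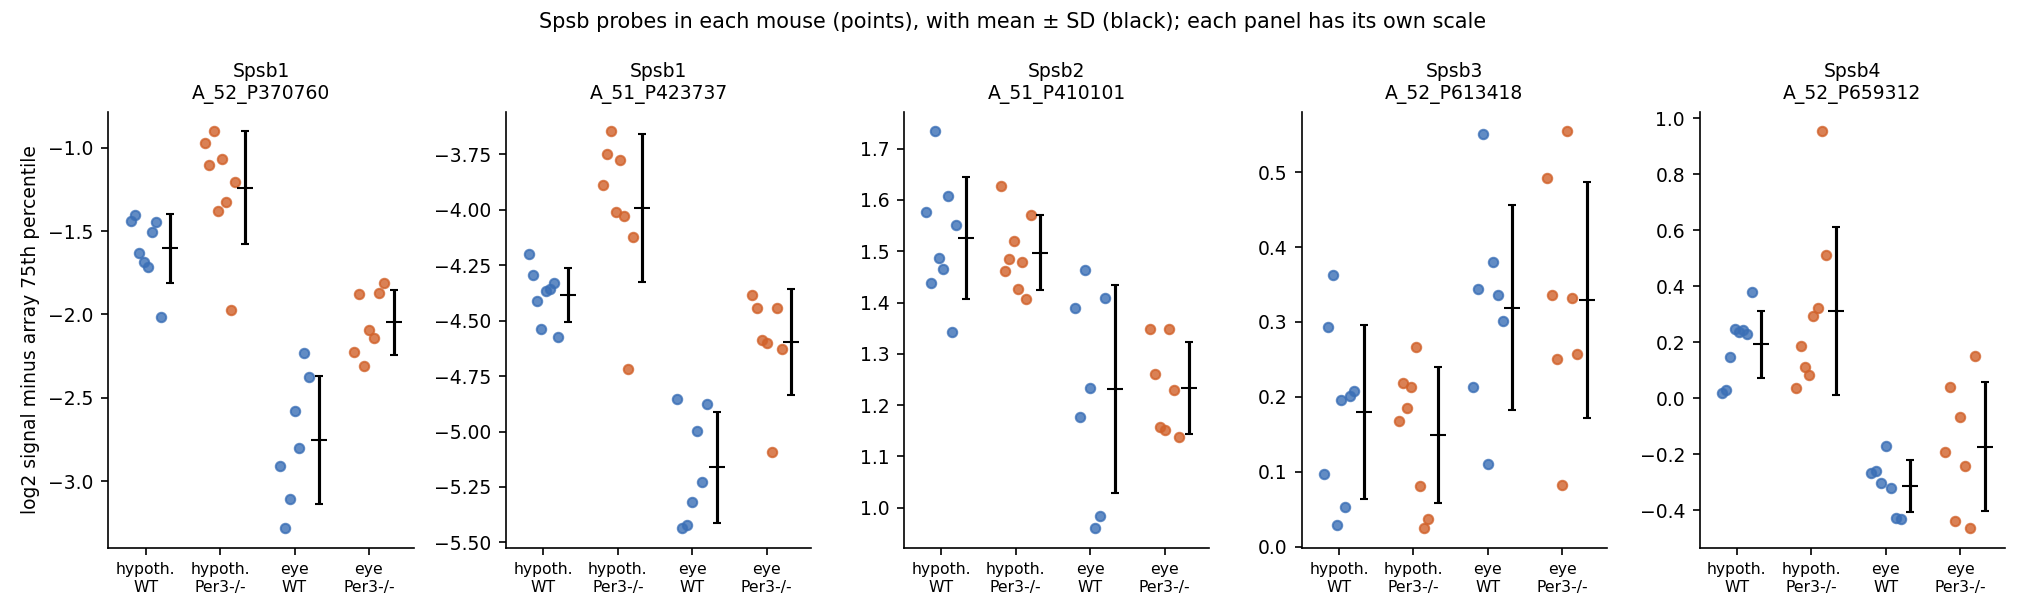
Level of each Spsb probe in every mouse, as log2 signal minus the 75th percentile of the array (y axis, 1 scale per panel), for WT (blue) and Per3-/- mice (orange) in the hypothalamus (hypoth.) and eye; black marks are mean ± SD. Both Spsb1 panels have most Per3-/- mice above the WT mice of the same tissue, with mean differences of 0.36 to 0.71, and the Spsb2 and Spsb3 panels have the genotypes intermixed.

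The same direction was present on every slide. Each slide of the eye held both genotypes, and the mean of the Per3-/- eyes exceeded that of the WT eyes by 0.46 to 1.10 with A_52_P370760 and by 0.31 to 0.91 with A_51_P423737 on the 4 slides. Macrophages are cells in which Nos2 is induced, and all 9 macrophage marker genes were well above background on every eye array. Their summed log2 level was 5.46 to 6.11 in WT and 5.80 to 6.26 in Per3-/- eyes. The means were 5.74 and 6.01, and the Per3-/- eye was the higher in 5 of 6 pairs of the same number, so the macrophage means differed in the same direction as Spsb1, and their part in its difference was not tested.

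In the hypothalamus the means also lay higher in Per3-/- mice. The tests there are not independent evidence, because the genes were chosen with earlier results of both tissues known. With A_52_P370760 the WT mice ranged from -2.01 to -1.40 with a median of -1.57 and the Per3-/- mice from -1.97 to -0.90 with a median of -1.15. The difference was 0.36 (standard error 0.13) or 1.29-fold, with p = 0.022 in a two-sided exact permutation test and an adjusted p of 0.99 from limma over all probes. A_51_P423737 ranged from -4.57 to -4.20 with a median of -4.36 in WT and from -4.72 to -3.65 with a median of -3.95 in Per3-/- mice. Here the difference was 0.39 (standard error 0.12) or 1.31-fold, with an exact permutation p of 0.0096 and an adjusted p of 0.99 from limma. With both probes 7 of 8 Per3-/- mice lay above every WT mouse, an arrangement that 0.0535% of 41142 probes reached in the hypothalamus. At an adjusted p under 0.05, limma called 17 of the 41174 probes of the hypothalamus comparison (0.0413%) and 8 of the eye comparison (0.0194%), and neither the 6 Spsb probes in the hypothalamus nor those of Spsb2, Spsb3 and Spsb4 in the eye were among them. All 8 called eye probes were lower in Per3-/- mice, so the Spsb1 probes on chromosome 4, which were higher, were not among them. The Spsb1 difference in the hypothalamus likewise did not pass the adjustment over all probes. Its 95% intervals were 0.08 to 0.65 and 0.13 to 0.65. With normexp background correction the differences were 0.30 and, for the dim probe A_51_P423737, 0.14.

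For A_51_P423737, but not for A_52_P370760, this call turned on 1 mouse. That mouse ran against the difference, so the fit without it describes how the call depends on it and is not evidence for a difference. The Spsb1 signal of Per3-/- mouse 7 was -1.97 with A_52_P370760 and -4.72 with A_51_P423737, the lowest of its group with both probes, and with the second it lay below every WT mouse. Without this mouse the difference was 0.50 with A_51_P423737, at an adjusted p of 0.035 from limma, and 0.47 with A_52_P370760, at an adjusted p of 0.37, in a fit that called 0.034% of all probes. Leaving out any other single mouse of the hypothalamus changed no call of these probes. The same mouse had the lowest summed level of hypothalamic markers, 7.41 against 7.65 to 7.85 in WT mice and at least 7.47 in the other Per3-/- mice, and the highest of cornea markers, -0.62. The lowest WT mouse with both Spsb1 probes, mouse 8, had the lowest summed level of macrophage markers, 3.45 against at most 4.09. The part of these levels in the Spsb1 values was not tested. Without Per3-/- mouse 1, which stood apart in pituitary markers, the differences were 0.33 and 0.38, and without WT mouse 5 they were 0.35 and 0.39. On the 4 slides of the hypothalamus the Per3-/- mean exceeded the WT mean by 0.14 to 0.52 with A_52_P370760 and by 0.03 to 0.65 with A_51_P423737. The smallest value of each was that of the slide that held Per3-/- mouse 7.

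The difference between genotypes was numerically larger in the eye than in the hypothalamus for Spsb1, by 0.34 with A_52_P370760 and 0.17 with A_51_P423737 on the log2 scale. The eye values had chosen the gene, so no test is given, and the standard errors of these gaps were 0.21 and 0.18.

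**Figure D2:**
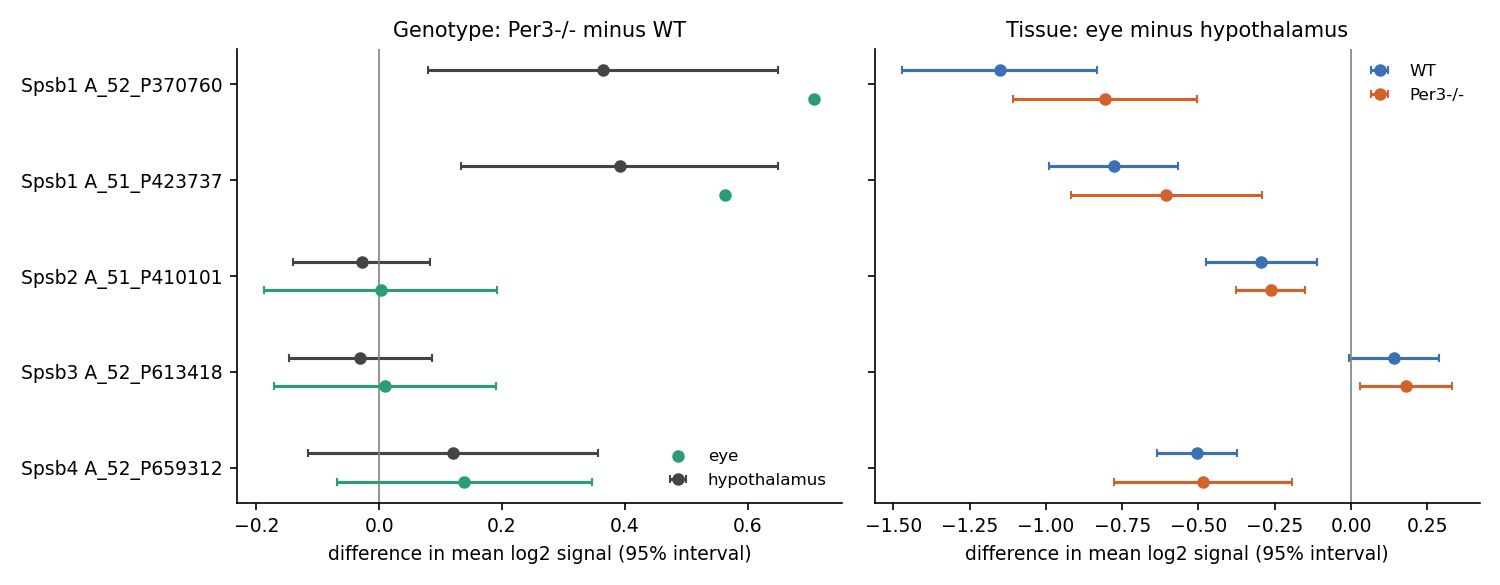
Differences in mean log2 signal (points, with 95% intervals from limma except for Spsb1 by genotype in the eye, which chose the gene) of the 5 Spsb probes that were well above background on every array: Per3-/- minus WT in the hypothalamus and eye (left), and eye minus hypothalamus in WT and Per3-/- mice (right). On the left the Spsb1 points lie at 0.36 to 0.71 and the intervals of Spsb2, Spsb3 and Spsb4 include 0, and on the right the intervals of Spsb1, Spsb2 and Spsb4 lie below 0 while that of Spsb3 in WT mice includes it.

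The other members of the family did not differ detectably between the genotypes. Spsb2, which shares the Nos2 target with Spsb1, had medians of 1.52 in WT and 1.48 in Per3-/- hypothalamus and of 1.23 in both genotypes in the eye. Its ranges were 1.34 to 1.73 and 1.41 to 1.63 in the hypothalamus and 0.96 to 1.46 and 1.14 to 1.35 in the eye, so that the genotypes were intermixed. The genotype difference was -0.03 in the hypothalamus, with a 95% interval of -0.14 to 0.08, and 0.00 in the eye, with an interval of -0.19 to 0.19. Spsb3, the family member that is not grouped with the Nos2 binders, ranged from 0.03 to 0.36 in WT and from 0.02 to 0.27 in Per3-/- hypothalamus. In the eye it ranged from 0.11 to 0.55 in WT and from 0.08 to 0.55 in Per3-/- mice. Its differences were -0.03 (95% interval -0.15 to 0.09) in the hypothalamus and 0.01 (-0.17 to 0.19) in the eye.

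Spsb4 had SDs of 0.30 among Per3-/- and 0.12 among WT mice in the hypothalamus. There the WT mice lay between 0.02 and 0.38 with a median of 0.23, and the Per3-/- mice between 0.04 and 0.95 with a median of 0.24. The highest value was again that of Per3-/- mouse 7, and the next highest was 0.51. The genotype difference was 0.12 (standard error 0.11), at an adjusted p of 0.99 from limma. It was 0.03 without that mouse. In the eye WT mice lay between -0.43 and -0.17 and Per3-/- mice between -0.46 and 0.15, with SDs of 0.09 and 0.23. Here 3 of 7 Per3-/- eyes lay above and 2 below every WT eye, and the difference of 0.14 (standard error 0.10) had an adjusted p of 1 from limma. Between the tissues, the genotype differences of Spsb2, Spsb3 and Spsb4 differed by 0.03, 0.04 and 0.02 (each with an adjusted p of 1 from limma), in a comparison in which 0.00486% of all probes were called.

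Levels differed between the tissues for most members, as they did for 74.9% of all probes in WT and 75.1% in Per3-/- mice at an adjusted p under 0.05. Of the 5 probes measured above background throughout, 4 were called in WT mice and 5 in Per3-/- mice, so the members were called about as often as the rest of the array. Each tissue had 4 slides of its own, so tissue and slide cannot be told apart in any comparison of eye with hypothalamus levels. Spsb1 was lower in the eye than in the hypothalamus. Its tests between the tissues use the eye values that chose the gene, so they are not independent of that choice. In WT mice the difference was -1.15 ± 0.15 (standard error) with A_52_P370760, at an adjusted p of 3.5e-06 from limma. With A_51_P423737 it was -0.78 ± 0.10, at an adjusted p of 2.7e-06. With both, every WT eye lay below every WT hypothalamus. The share of all probes separated in this way was not counted, here or for Spsb4. In Per3-/- mice the differences were -0.81 (adjusted p = 8e-05) and -0.61 (adjusted p = 0.0015). Spsb4 was lower in the eye by a similar amount in both genotypes, -0.50 in WT (adjusted p = 1.7e-06) and -0.48 in Per3-/- mice (adjusted p = 0.0045), and every WT eye lay below every WT hypothalamus. Spsb2 was lower in the eye by 0.29 on the log2 scale in WT (adjusted p = 0.0056) and by 0.26 in Per3-/- mice (adjusted p = 0.00033). Spsb3 alone was higher in the eye, by 0.18 in Per3-/- mice (adjusted p = 0.031 from limma), while the WT difference of 0.14 did not pass (adjusted p = 0.08).

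These tissue differences depend on how arrays of the 2 tissues are put on 1 scale. Relative to the 75th percentile, the median of all probes was itself higher in the eye, by 0.15 in WT and 0.23 in Per3-/- mice, and quantile normalization moved it to -0.07 and -0.06, while normexp moved it to 0.11 and 0.57. With quantile normalization the differences of the dim Spsb1 probe A_51_P423737 grew to -1.47 in WT and -1.22 in Per3-/- mice. With normexp background correction they were -0.34 and 0.08, so that its direction in Per3-/- mice turned. The brighter Spsb1 probe gave -1.43 and -1.03 with quantile normalization and -0.86 and -0.47 with normexp. Under both settings Spsb4 kept a difference between -0.52 and -0.38.

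The relation to Per3 separated the Spsb1 probes. Among the 7 WT eyes, which had drawn attention to the gene, A_52_P370760 rose with Per3 at r = 0.985 and the order of the mice was the same for both, with rho = 1. Without the 2 mice farthest from the Per3 median r was 0.97. The median of all probes on each array put the 7 WT eyes in the same order as both probes. It rose from -3.04 in mouse 3 to -2.65 in mouse 7, and its part in the relation was not tested. In the same 7 eyes A_51_P423737 gave r = 0.32 and rho = 0.46, and r = 0.21 without the 2 farthest mice. Per3 itself followed the slides, with WT means of -3.38, -3.52, -3.10 and -2.63 on slides 1 to 4 and Per3-/- means of -3.99, -4.09, -3.47 and -2.96. After the slide means were taken out, which leaves 6 eyes on 3 slides of 2 each, r was 0.93 with A_52_P370760 and -0.90 with A_51_P423737. Within slides the r values of the pair of probes had opposite signs, and a quantile scale also turned the sign of A_51_P423737, to -0.80. With only 2 eyes on each of 3 slides, the within-slide values cannot settle a direction. No test was made of these relations, because the WT eyes chose the gene.

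**Figure D3:**
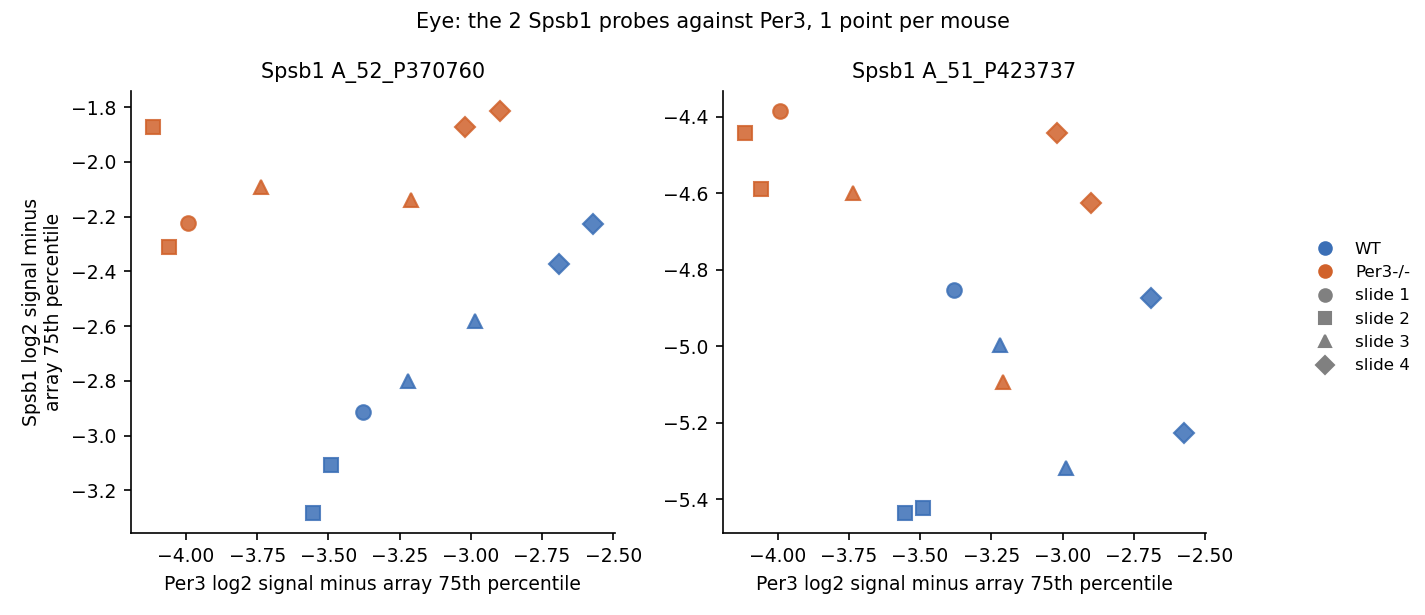
Spsb1 against Per3 in the eye (both as log2 signal minus the array's 75th percentile), 1 point per mouse, with genotype by colour and slide by shape, for A_52_P370760 (left) and A_51_P423737 (right). The WT eyes form a line on the left (r = 0.985) and a scatter on the right (r = 0.32), and mice of slide 4 (diamonds) lie at the high end of Per3 in each genotype.

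Outside the WT eye no relation of a Spsb probe to Per3 passed its test. Over the 21 relations tested, which are all 6 probes in the 4 groups apart from the WT eye for the probes named Spsb1, r ranged from -0.61 to 0.58 with a median of -0.11, and 9 were positive. The lowest adjusted p was 0.93 (two-sided exact permutation tests), and no unadjusted p was under 0.05. In the Per3-/- eyes A_52_P370760 gave r = 0.56 (exact permutation p = 0.18, adjusted p = 0.93) and a rank correlation of 0.61 (exact permutation p = 0.17, adjusted p = 0.76). This value fell to -0.08 without the 2 mice farthest from the Per3 median and to -0.18 with the slide means taken out. With A_51_P423737 the Per3-/- eyes gave r = -0.39 (exact permutation p = 0.45, adjusted p = 0.95), and -0.98 with the slide means taken out. In the hypothalamus both Spsb1 probes ran against Per3 in WT mice, with r = -0.54 (exact permutation p = 0.18, adjusted p = 0.93) and r = -0.39 (exact permutation p = 0.35, adjusted p = 0.95). These values became -0.82 and -0.83 with the slide means taken out, and 0.17 and -0.05 without the 2 mice farthest from the Per3 median. All values with the slide means taken out rest on 2 mice per slide and cannot settle a direction. In the Per3-/- hypothalamus r was -0.12 and -0.24, with adjusted p = 0.95 for both in the exact permutation test.

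Both tissues came from 8 mice of each genotype, but the sources do not say that a replicate number marks the same mouse in both. Between eye and hypothalamus arrays of the same genotype and number, no relation of a member passed its test. Over 12 relations (6 probes in 2 genotypes, 7 numbers each), r ranged from -0.50 to 0.89, with an adjusted p of 0.14 at the lowest (two-sided exact permutation tests). The highest was that of A_52_P3784 in WT mice, which compares signals near background. For the Spsb1 probes on chromosome 4, r was -0.17 and 0.25 in WT mice and -0.12 and 0.02 in Per3-/- mice (exact permutation p between 0.57 and 0.94, adjusted p between 0.92 and 0.94).

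How the members varied among mice, after the genotype means were taken out, is given as a description. In the hypothalamus both Spsb1 probes varied together over 16 mice, at r = 0.91. In the eye the same probes gave r = 0.31 over 14 mice. Spsb4 ran against Spsb1 in the hypothalamus, at r = -0.81 with A_52_P370760 and r = -0.87 with A_51_P423737, and at -0.74 and -0.83 after the slide means were also removed. Within WT mice alone r was -0.78 and -0.82 (n = 8). Within Per3-/- mice it was -0.83 and -0.88 (n = 8), and -0.33 and -0.51 without mouse 7 (n = 7), so in this genotype the relation rests largely on that mouse. In the eye Spsb4 and Spsb1 gave r = 0.03 and -0.09. Spsb2 with Spsb1 gave r = 0.11 and 0.08 in the hypothalamus and r = -0.27 and 0.00 in the eye.

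**Figure D4:**
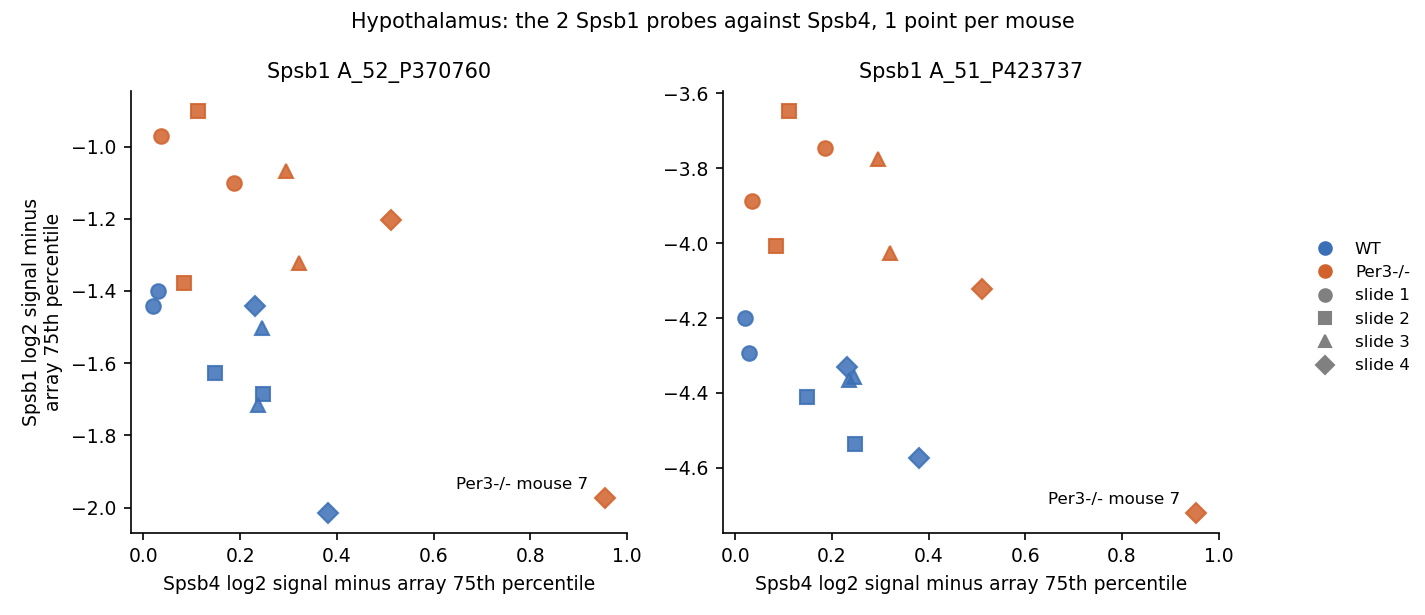
Spsb1 against Spsb4 in the hypothalamus (both as log2 signal minus the array's 75th percentile), 1 point per mouse, with genotype by colour and slide by shape. WT mice with more Spsb4 signal had less Spsb1 signal (r = -0.78 on the left and -0.82 on the right). Per3-/- mouse 7, at 0.95 for Spsb4, is at the lower right of both panels. In Per3-/- mice the relation rests largely on it, with r = -0.33 and -0.51 without it.

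The genes whose pattern over mice was most like that of Spsb1 differed between the tissues. Likeness was the correlation with A_52_P370760 after genotype and slide were taken out, among the probes that each array of a tissue measured above background (27150 for hypothalamus, 27883 for eye). In the hypothalamus (16 mice) the closest were Hsd11b1, which regenerates active glucocorticoid, at r = 0.93, Dcaf12l2 at 0.92, Derl2, which acts in protein disposal from the endoplasmic reticulum, at 0.92, and 2310068J16Rik and the proprotein convertase Pcsk5 at 0.91. The other Spsb1 probe stood at rank 28 there with r = 0.87. In the eye (14 mice) close genes were the calcium sensor Otof at 0.96, the sphingomyelin synthase Sgms1 at 0.95, and Slamf8 and the macrophage chitinase Chit1 at 0.91. The other Spsb1 probe stood at rank 4009 in the eye, at r = 0.39. Closest to Spsb2 were Pfkfb4 in the hypothalamus (0.87) and Pdpn in the eye (0.93), closest to Spsb3 were Blcap (0.95) and St6galnac6 (0.98), and closest to Spsb4 were Ccni (0.95) and Atp1b1 (0.96). These correlations are the highest among many probes over few mice and are given without a test.

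Around Spsb1, within 0.25 Mb of its probes on chromosome 4, the array has 15 other probes, and 2 of them were called in each tissue. The called share of the whole array was 0.0413% for hypothalamus and 0.0194% for eye. Slc2a5, the fructose transporter, fell by 1.71 on the log2 scale in Per3-/- hypothalamus and by 1.37 in Per3-/- eyes (adjusted p = 5.5e-05 and 0.0018 from limma). Every Per3-/- mouse lay below every WT mouse for Slc2a5 in both tissues, and in the eye its signal was well above background on 11 of 14 arrays. The other called probe, A_52_P448205 of ENSMUST00000084120, fell by 0.47 and 0.61 in the hypothalamus and eye (adjusted p = 0.00029 and 0.00092). Both probes of Slc25a33, a mitochondrial nucleotide carrier, were higher in Per3-/- eyes by 0.33 and 0.36 on the log2 scale without passing the adjustment (adjusted p = 1), and by 0.00 and 0.03 in the hypothalamus. For one of them every Per3-/- eye lay above every WT eye. At least 6 of 7 Per3-/- eyes did so for 0.124% of the probes measured on all eye arrays. The share with full separation was not counted, here or for Slc2a5. The remaining named neighbours were Clstn1, Pik3cd, Tmem201, H6pd and Gpr157, with differences between -0.20 and 0.11. The median over the 15 probes was -0.02 in the hypothalamus and 0.00 in the eye. Yet 5 of the 15 had an unadjusted limma p under 0.05 in each tissue, against array-wide shares of 2.82% (hypothalamus) and 1.8% (eye). These counts include the 2 called probes of each tissue and, in the eye, both probes of Slc25a33, so they do not describe small differences alone.

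**Figure D5:**
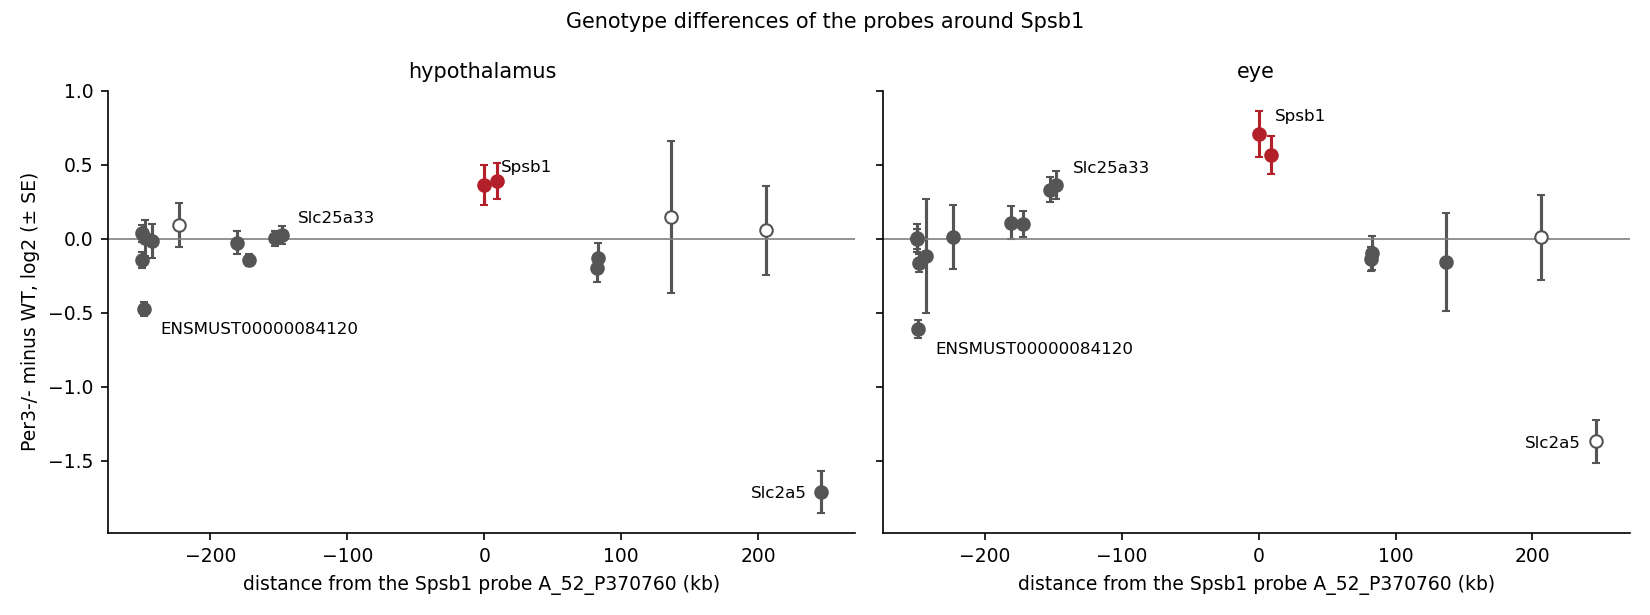
Genotype difference (Per3-/- minus WT, log2, ± standard error) of every probe within 0.25 Mb of the Spsb1 probes against its distance from A_52_P370760 in kb, in the hypothalamus and eye; Spsb1 is red, and open points were not well above background on every array. Spsb1 lies above 0 in both tissues, Slc2a5 at -1.71 and -1.37 lies far below, and most other probes lie near 0.

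The partners of the family showed no called genotype difference. The ligase core (elongin B and C under their array names Tceb2 and Tceb1, Cul5, Cul2, Rnf7, Rbx1 and the enzymes that attach Nedd8) was covered by 30 probes of 12 genes. None passed an adjusted p under 0.05 in either tissue, and at an unadjusted p under 0.05 there were 0 in the hypothalamus and 1 in the eye, beside 2.82% and 1.8% of all probes. The lowest p-values belonged to 2 probes of the ligase Arih1 in the hypothalamus (differences of 0.14 and -0.09, adjusted p = 0.99 from limma) and, in the eye, to the Nedd8 enzyme Ube2f (0.15) and the scaffold Cul5 (-0.12, adjusted p = 1 for both). The list's median was -0.01 in the hypothalamus and 0.02 in the eye, against -0.01 and 0.00 over all probes.

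Proteins that SPSB adaptors are known to bind or mark were covered by 11 probes of 6 genes, none of them called between the genotypes. At an unadjusted p under 0.05 the hypothalamus had 1 and the eye 0. The lowest p-values in the hypothalamus were that of the growth factor receptor Met (a difference of 0.55 ± 0.22 (standard error), at an adjusted p of 0.99 from limma) and that of Tgfbr2 (0.12), and in the eye those of Tgfbr2 (0.15) and of the apoptosis regulator Pawr (-0.16, adjusted p = 1). Nos2, the best known partner, was well above background on 1 of the 15 WT arrays of both tissues. The list's medians were 0.02 and 0.04.

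Other SOCS box adaptors (55 probes of 31 genes) and other SPRY domain proteins (14 probes of 8 genes) likewise held no called probe. For the SOCS box list, the hypothalamus had 2 probes and the eye 0 with an unadjusted p under 0.05, and for the SPRY list there were 0 in both tissues. The SOCS box probes of lowest p were Socs6 (-0.10) and the cytokine-induced inhibitor Cish (0.25) in the hypothalamus and Asb11 (0.36) and Asb13 (-0.08) in the eye. Those of the SPRY list were Spryd4 (0.04) and Fbxo45 (-0.06) in the hypothalamus and Ranbp10 (-0.63, well above background on 9 of 14 arrays) and Ash2l (-0.09) in the eye. Adjusted p-values from limma were at least 0.99 for all of these.

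Between the tissues, the ligase core was called about as often as the rest of the array. In WT mice 16 of its 30 probes were lower and 6 higher in the eye at an adjusted p under 0.05, a share of 73.3% beside 74.9% of all probes, of which 33.3% were lower and 41.6% higher. The list's median was -0.19 against 0.15 over all probes. With quantile normalization 16 were lower and 7 higher, with 39.4% of all probes lower and 34.9% higher. Both probes of Tceb2 (elongin B) were lower, by -1.31 and -1.28, and both of Tceb1 (elongin C), by -0.80 and -0.72, while both probes of Rnf7 were higher, by 1.13 and 0.41. The 4 probes of Cul5 disagreed, with 1 higher (0.73), 2 lower (-0.87 and -0.40) and 1 not called (-0.07). Of the substrates, 7 of 11 probes were higher and 1 lower in the eye, a share called of 72.7% that is again near that of all probes, and quantile normalization gave the same counts. Among them were Met (A_52_P656418), higher by 4.44, and Ephb2 (A_51_P163714), which fell by 0.63 on the log2 scale from hypothalamus to eye.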

How the data were processed

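Total RNA was labelled with Cy3 and hybridised to Agilent arrays of 60-mer probes. Per the labels the authors extracted spots with Feature Extraction 10.7.1.1, and the deposited intensity values (processed signals) are linear, background-subtracted and not normalized across arrays. A deposited series table holds the authors' log2 values, which follow the same signals minus the array's 75th percentile and centred on each probe within a tissue (r = 0.99987 to 0.999998 per array). Here the processed intensities of 41174 probes were taken to log2 and the array's 75th percentile was subtracted, leaving out spots marked uneven or as outliers. Well-above-background marks were those of the files. Positions are those of the hypothalamus files on mm9. Eye probes were matched by probe name.

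Groups were compared with limma 3.58.1 in R 4.3.3, probe by probe, with Benjamini-Hochberg adjustment over all 41174 probes. Eye against hypothalamus was fitted within each genotype, and the difference between tissues over all 30 arrays. In the eye, WT and Per3-/- mice of the same number shared slides, and their deviations from the group means correlated at 0.11 to 0.63 in all 6 pairs. Each slide held more than 1 number, and different numbers of a slide were not compared, so pair and slide cannot be told apart. The main fit has no block. In the hypothalamus the 8 pairs gave -0.03 to 0.32 and are not taken as paired. With the number as a block the eye had 1 called probe in place of 8, and no call of a Spsb probe changed. With slide as a block the eye had 9 called probes. Whether eye and hypothalamus of 1 number are 1 mouse is not stated in the sources used here, and their deviations correlated at -0.12 to 0.16, so a block on that number is only an alternative. Exact permutation tests and correlations used Python 3.11.15, numpy 2.4.6, pandas 2.3.3 and scipy 1.17.1, and tests were two-sided. The fit was tested on simulated data. In lists, genes past an adjusted p under 0.05 were to be named between genotypes, or otherwise the 2 probes of lowest p per list and tissue, and examples of tissue differences were chosen after their values were seen. Summed marker levels took the brightest probe of each gene. The family, its lists and its tests were chosen with earlier results of these data known. Alternatives were quantile normalization, normexp (offset 50), a filter on dim probes, the authors' table, blocks for slide and replicate number, the unpaired test named in the methods, and leaving out each mouse. Leaving out each slide of the eye was added after the data were seen. The number of arrays limits the precision. A gene among those most like Spsb1 in the eye is not reported here.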

Additional observations from a re-analysis of the deposited data

Results flagged for a closer look

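Of 24 combinations of probe and group, 3 had a mouse whose gap to its nearest neighbour exceeded Dixon's 95% limit, where chance alone marks about 1 in 20. Per3-/- mouse 7 was low for Spsb1 in the hypothalamus with both probes, at -1.97 with A_52_P370760 (the other 7 mice averaged -1.13) and at -4.72 with A_51_P423737 (the others averaged -3.89). Per3-/- mouse 6 was low in the eye with A_51_P423737 only, at -5.09 against an average of -4.51 in the others.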

How the results depend on the processing

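The Spsb1 genotype difference kept its direction with both probes in both tissues under every alternative run. Without each mouse in turn it was 0.34 to 0.50 in the hypothalamus with A_51_P423737, and only without Per3-/- mouse 7 did it pass the adjustment. With the replicate block it was 0.36 and 0.39 in the hypothalamus and 0.71 and 0.58 in the eye. This block left 5 probes called in the hypothalamus and 1 in the eye and took Spsb3 in the eye to -0.035. In the hypothalamus the numbers are not taken as pairs. With the number within a genotype as a replicate block across tissues, which share only a number (deviations correlated at -0.12 to 0.16), the Spsb3 tissue difference in Per3-/- mice was 0.18 and no longer passed.

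Normexp, which moved the median of all probes in the eye genotype comparison to 0.18, left 10 probes called in the hypothalamus, 4 in the eye and 0 in the difference between tissues (999 at an unadjusted p under 0.05 in limma; 1 called with quantile normalization). It took the Spsb1 gap between tissues to 0.42 with A_51_P423737 and that probe's tissue difference in Per3-/- mice to 0.078, the genotype differences of Spsb2 and Spsb3 in the eye to -0.036 and -0.037, the Spsb3 gap between tissues to -0.019, and the Spsb3 tissue difference in Per3-/- mice to 0.072. It gave r with Per3 of 0.65 in WT hypothalamus and 0.85 in Per3-/- eyes with A_51_P423737 and 0.94 in Per3-/- eyes with A_52_P370760, and 1 relation to Per3 then passed. Without normexp, the r of A_52_P370760 in Per3-/- eyes was 0.56, and -0.18 with slide means taken out. The cause was not tested.

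The tissue difference in WT mice no longer passed for Spsb2 with quantile normalization (-0.19) or normexp (-0.20), nor for A_52_P3784 (0.88 and 0.36). In Per3-/- mice A_52_P3784 gave 0.62 with quantile normalization. Spsb3 passed in WT mice with quantile normalization (0.16). Eye and hypothalamus of Per3-/- mice then gave r = 0.0060 with A_52_P370760. The authors' table is centred within each tissue and could not be used between tissues.

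Without slide 2, 3 or 4 the eye had 2, 1 and 1 probes called. Spsb2 in the eye was -0.058 without slide 3. Spsb3 in the eye was -0.035 without slide 1 and -0.015 without slide 3.

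Without each mouse in turn, Spsb2 gave -0.054 to 0.0015 in the hypothalamus, -0.043 to 0.041 in the eye and a gap between tissues of -0.014 to 0.069, so these differences near 0 have no settled sign. Spsb3 gave -0.028 to 0.051 in the eye, 0.10 to 0.17 between tissues in WT and 0.14 to 0.22 in Per3-/- mice. The Spsb4 gap between tissues was -0.035 to 0.11. The r of A_52_P370760 with Per3 in Per3-/- hypothalamus was -0.56 to 0.19. Between eye and hypothalamus r was -0.59 to 0.39 in WT and -0.38 to 0.54 in Per3-/- mice with A_52_P370760, and -0.20 to 0.82 and -0.12 to 0.60 with A_51_P423737, and 0 to 1 of these relations passed.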
